A study of Drosophila melanogaster with 9 samples.

Results

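Rab GTPases and Vps proteins run the membrane traffic of the cell. A Rab is a small GTPase that, when bound to GTP, recruits effectors to 1 kind of membrane, and each Rab marks a compartment such as the early endosome, the Golgi or a secretory vesicle. The Vps genes were first found in yeast mutants that missort proteins bound for the vacuole, and many encode subunits of complexes that tether vesicles (HOPS, CORVET, GARP) or retrieve cargo from endosomes (retromer). In the epithelium of the wing disc this traffic sorts receptors and morphogens such as Wingless, whose carrier Wntless is recycled by retromer.

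The genes described here were those whose symbol begins with Rab, RabX or Vps followed by a number. The Vps genes of the ESCRT machinery, which sorts ubiquitinated cargo into multivesicular bodies, were left out. The rule used names only, no measured value, and gave 43 of the 11982 genes measured, 25 with a Rab name and 18 with a Vps name. Of these, 3 are regulators of Rabs and not Rabs themselves (Rab3-GAP, Rab3GAP1 and Rab3-GEF). Rab1, Rab4, Rab5, Rab6, Rab7, Rab8 and Rab11, which mark the main secretory, early, late and recycling compartments, had no probe set of their own in the probe table used and were not analysed here.

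RNA was measured on 9 Affymetrix arrays of Drosophila melanogaster, 3 biological replicates of each of 3 sorted cell populations. All came from wing imaginal discs of larvae about 8 days old, strain background w1118. In these larvae en-gal4, which is active in the posterior compartment, drove p35 (a viral caspase inhibitor), a double-stranded RNA against asp (a spindle pole gene) and RFP, and an MMP1-GFP construct reported on the matrix metalloprotease gene Mmp1. Delaminating cells were positive for RFP and for GFP, posterior cells were positive for RFP and negative for GFP, and anterior cells were negative for both. The anterior cells carried the same transgenes without the driver's activity, so each comparison with them joins compartment and transgene expression, which cannot be told apart. No group of discs without asp double-stranded RNA entered, and asp itself was not analysed here. The populations are bulk sorts, in which fewer cells of a type and less RNA per cell cannot be told apart.

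Values are RMA signals on the log2 scale, used as deposited. Differences are taken between arrays for the same probe set. Levels across probe sets served to choose the brightest set of a gene, to pick the named genes of a class and to mark signals below an array's lower quartile. Differences are between group means on the log2 scale with limma's moderated standard error (SE), p values are those of limma with the Benjamini-Hochberg adjustment across 11982 genes, and a gene is called at an adjusted p under 0.05.

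The sorts followed the compartment markers. The posterior selector gene en had log2 signals of 10.01 to 11.03 in delaminating, 10.45 to 10.64 in posterior and 6.88 to 7.49 in anterior cells, and the anterior gene ci had 7.77 to 8.04, 8.32 to 8.36 and 9.62 to 10.2 in the same populations. The mean log2 signal of 5 markers of adult muscle precursors lay at 6.47 to 7.12 on the delaminating and 7.02 to 7.77 on the posterior arrays, against 10.9 to 11.2 on the anterior arrays, and all 5 were called lower in delaminating than in anterior cells. The mean of 9 hemocyte markers was 7.73 to 10.1 in delaminating, 6.67 to 8.08 in posterior and 7.88 to 8.88 in anterior cells, with the highest value on delaminating replicate 2. Of these 9, 7 had differences above 0 in delaminating against anterior cells and 3 in posterior against anterior cells. The marker vkg was called lower in both comparisons (limma adjusted p = 0.0421 and 0.0243). The mean of 4 glial markers was 8.86 to 9.02, 8.29 to 8.47 and 7.48 to 8.17 in delaminating, posterior and anterior cells, and 1 of them, moody, was called higher in delaminating than in anterior cells. All 4 had differences above 0 in that comparison, with a median of 0.42 against 3.44 for moody. The mean of 4 tracheal markers was 9.62 to 9.87, 9.65 to 9.76 and 9.32 to 9.51, with 1 of them, serp, called higher in the same comparison. Only 2 of these 4 had differences above 0 there. The part of these other cell types in the differences given here was not tested.

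Anterior replicate 3 stood apart from the other arrays. Its correlation with them over all genes was 0.889 to 0.915, against 0.943 to 0.987 among the other 8. The median signal over the 43 genes was 7.29 on it and 7.82 to 8.16 on the others. It gave the lowest of the 9 signals for 28 of the 43 genes (65.1%), against 40.5% of all genes. Several differences from anterior cells are therefore given with and without it.

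**Figure D1:**
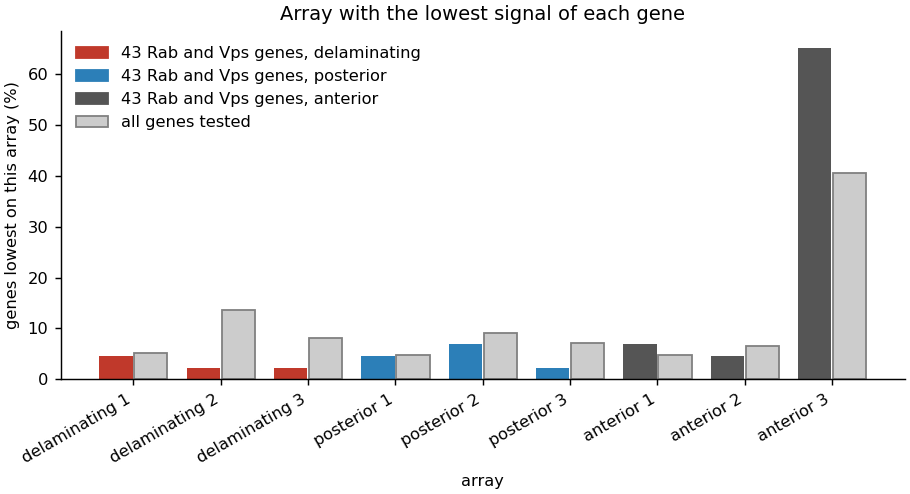
Share of genes (percent, vertical axis) whose lowest signal of the 9 fell on each array (horizontal axis, delaminating, posterior and anterior replicates), for the 43 Rab and Vps genes and for all 11982 genes. Anterior replicate 3 holds the lowest signal of 65.1% of the Rab and Vps genes and of 40.5% of all genes, and no other array holds that of more than 13.6% in either set.

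Delaminating and posterior cells, the 2 RFP-positive populations, were compared directly. By limma 0 of the 43 were called, against 0.801% of all genes, and 3 had an unadjusted p under 0.05 (Rab19, Rab3 and RabX2), which is 6.98% of the members against 9.98% of all genes. The median difference was 0.05, against -0.0031 over all genes, 24 of the 43 genes were above 0 (49.5% of all genes), and 38 lay within 0.5 of 0 (87.5% of all genes). The groups did not overlap for 13 genes (30.2%), against 22.3% of all genes. In 7 of these the delaminating arrays were above (10.7% of all genes) and in 6 below (11.5%). Without anterior replicate 3, which enters this comparison through the shared variance, 1 member was called (RabX2, limma adjusted p = 0.0291), against 2.35% of all genes, and 9 had an unadjusted p under 0.05 (16.6% of all genes).

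Posterior against anterior cells gave a median difference of 0.30, against 0.09 over all genes, with 36 of the 43 genes above 0 (60.7% of all genes). No member was called (0.576% of all genes), and 4 had an unadjusted p under 0.05 (Rab32, Rab9Fb, Vps16B and Vps50; 9.6% of all genes). The groups did not overlap for 9 genes (20.9%), against 18.4% of all genes. In 8 of these the posterior arrays were above (18.6% of the members, 11.9% of all genes). Without anterior replicate 3 the median was 0.05, against 0.01 over all genes, and 27 of the 43 differences were above 0 (share of all genes not counted).

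Delaminating against anterior cells gave the called genes. RabX2, Vps16B and Rab32 rose and no member fell, so that 3 of 43 were called (6.98%) against 3.82% of all genes called either way and 2.4% called higher. By unadjusted p under 0.05 the count was 7 of 43 (16.3%), close to the 16.6% of all genes. The median difference was 0.29, against 0.05 over all genes, and 35 of the 43 genes lay above 0 (56.2% of all genes). The groups did not overlap for 11 genes (25.6%), against 21.2% of all genes. In 10 of these the delaminating arrays were above (23.3% of the members, 13.2% of all genes). Without anterior replicate 3 the median was 0.08, against 0.00056 over all genes, and 25 of the 43 genes were above 0 (share of all genes not counted). In that fit RabX2 was the 1 member called, against 4.73% of all genes. Vps16B then had a difference of 0.89 (limma adjusted p = 0.0631) and Rab32 of 0.85 (adjusted p = 0.0822). Without delaminating replicate 3, 0 members and 1.77% of all genes were called.

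**Figure D2:**
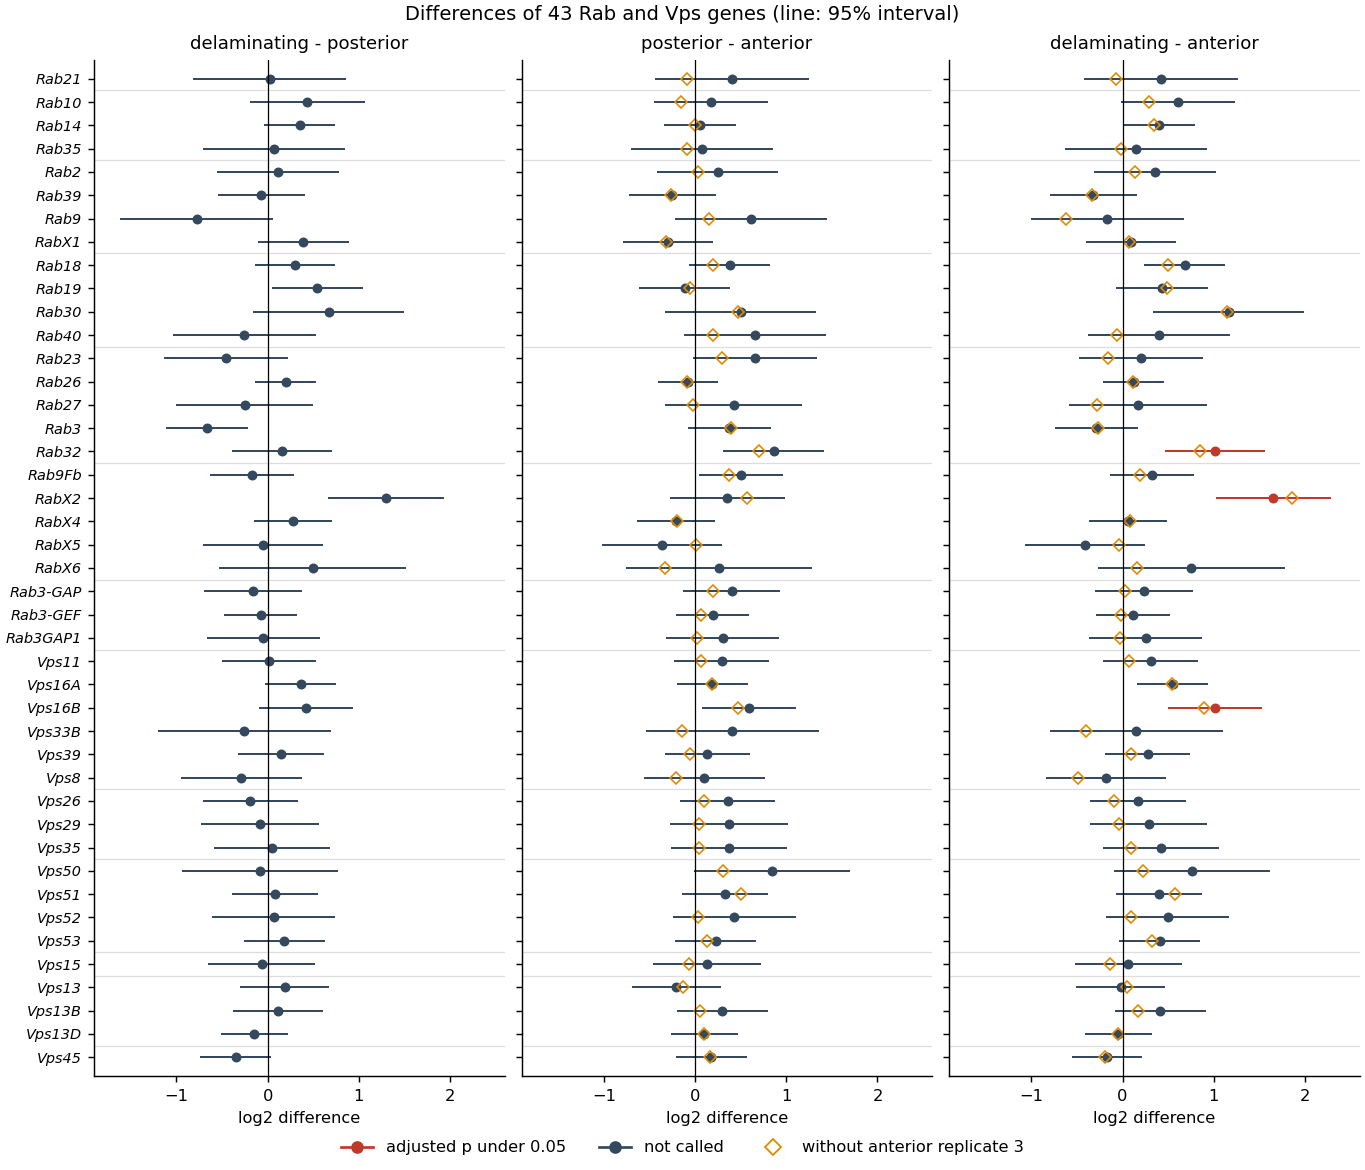
Log2 difference of each of the 43 genes (horizontal axis) in the 3 comparisons, with lines for 95% confidence intervals from limma, red for called genes and open diamonds for the value without anterior replicate 3. RabX2, Vps16B and Rab32 are the called genes, all in delaminating against anterior cells, at 1.65, 1.01 and 1.02.

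RabX2 is a Rab of the fly lineage whose function is little described. Its log2 signals were 8.96, 9.03 and 9.06 in delaminating cells, 7.22, 7.97 and 7.97 in posterior cells and 7.49, 6.82 and 7.78 in anterior cells. The delaminating arrays were tightly grouped above all 6 others, while posterior and anterior arrays overlapped. The difference of delaminating from anterior cells was 1.65 ± 0.28 (SE; 95% interval 1.03 to 2.28), 3.15-fold, with a limma adjusted p of 0.0107. From posterior cells it was 1.30 ± 0.28 (0.68 to 1.92), with an unadjusted p of 0.000924 and an adjusted p of 0.0791. Between posterior and anterior cells it was 0.35 ± 0.28 (adjusted p = 0.611 by limma), and 0.565 ± 0.27 (adjusted p = 0.662) without anterior replicate 3.

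RabX2 was the widest difference of the 43 genes in both comparisons with delaminating cells, and it was called against anterior cells in 18 of 19 alternative settings. Without delaminating replicate 3 its limma adjusted p against anterior cells was 0.0502, with a difference of 1.63. Against posterior cells it passed in 4 of 19, among them the fit without anterior replicate 3, where limma gave an adjusted p of 0.0291.

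In the RefSeq annotation RabX2, on the X chromosome, overlaps the gene CG32683. The signals of CG32683 stayed between 3.65 and 4.14 on all 9 arrays, below each array's lower quartile (6.01 to 6.34), and its difference of delaminating from anterior cells was 0.10 (limma adjusted p = 0.822). The next genes on either side, flw (a protein phosphatase catalytic subunit) and CG12640, differed by 0.41 and 0.24 in that comparison, with limma adjusted p of 0.479 and 0.645. No neighbour measured passed the test.

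Of the other 4 fly-lineage Rabs none was called in any comparison. Rab9Fb had 9.75, 9.38 and 9.89 in delaminating, 9.83, 10.03 and 9.68 in posterior and 9.57, 9.38 and 9.09 in anterior cells. Posterior arrays lay above anterior ones, a difference of 0.50 ± 0.20 (limma adjusted p = 0.482). RabX4 gave 7.18 to 7.40, 6.63 to 7.19 and 7.11 to 7.25 in the same order of populations, with overlap throughout. RabX6 gave 6.36 to 6.76 in delaminating, 5.54 to 6.39 in posterior and 4.59 to 6.66 in anterior cells, and it lay below the array's lower quartile on 3 arrays. RabX5 lay below it on all 9, at 4.62 to 4.78, 4.57 to 4.89 and 4.54 to 5.83, and was not shown to be above background.

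**Figure D3:**
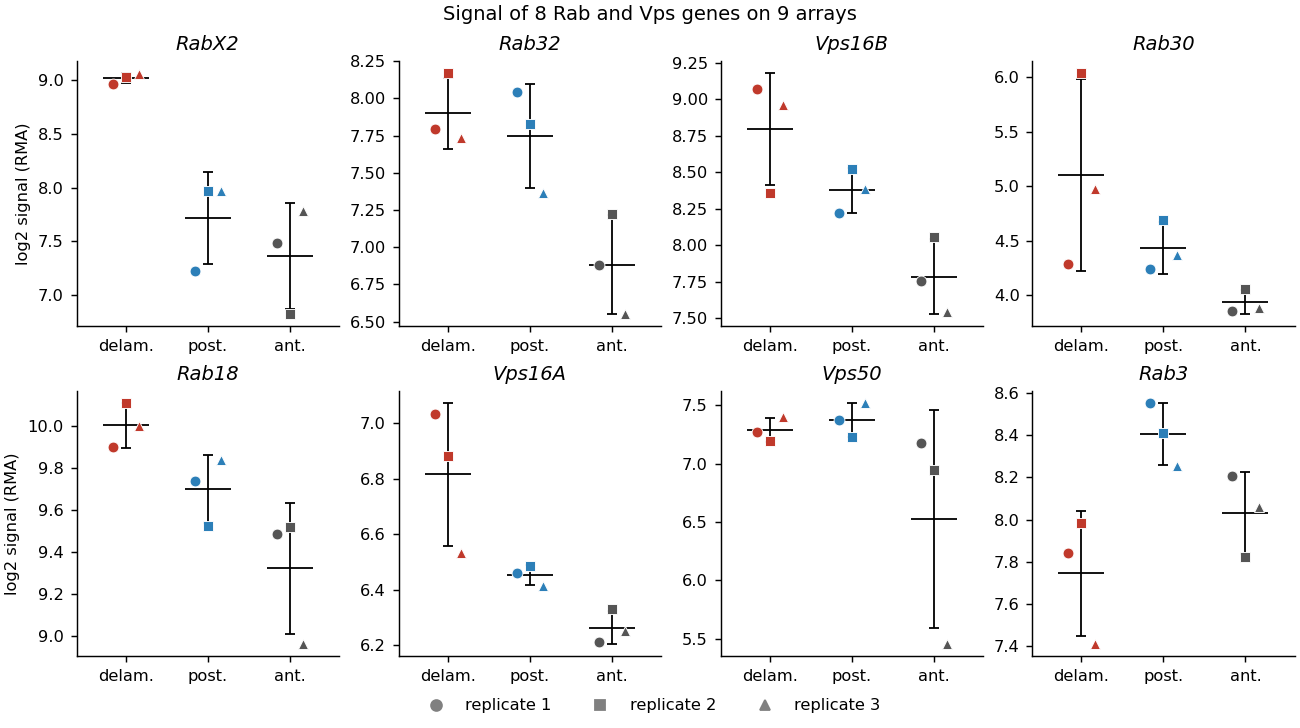
Log2 RMA signal (vertical axis, not starting at 0) of 8 Rab and Vps genes in delaminating, posterior and anterior cells, with a symbol for each replicate, a horizontal line at the group mean and error bars of 1 SD (n = 3). The RabX2 points of delaminating cells, 8.96 to 9.06, lie above all posterior and anterior points.

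Rab32 directs the formation of lysosome-related organelles, and in flies its mutations lighten the eye by disturbing pigment granules. Its log2 signals were 7.79, 8.17 and 7.74 in delaminating cells, 8.05, 7.83 and 7.36 in posterior cells and 6.88, 7.22 and 6.55 in anterior cells. All 6 arrays of RFP-positive cells were above the 3 anterior arrays, while delaminating and posterior arrays overlapped. Delaminating cells were 1.02 ± 0.24 above anterior cells (2.02-fold, limma adjusted p = 0.0492), and posterior cells 0.86 ± 0.24 above them (unadjusted p = 0.00525, adjusted p = 0.25). The call against anterior cells was kept in 6 of 19 alternatives, with limma adjusted p from 0.0235 to 0.151. It was lost with any 1 of the 9 arrays left out, at adjusted p from 0.0513 to 0.151, with the difference at 0.85 without anterior replicate 3. The Rab32 probe set is of a type whose probes can match more than 1 transcript. Rme-8, its neighbour on chromosome arm 2R, differed by 0.38 in the same comparison (limma adjusted p = 0.268).

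Rab32 was grouped with 4 other Rabs, which are Rabs of secretory vesicles except for Rab23. Of these, Rab3, Rab23 and Rab27 had differences below 0 and Rab26 above 0 in delaminating against posterior cells, none of them called. Rab3, the Rab of synaptic and other regulated vesicles, had 7.84, 7.98 and 7.41 in delaminating cells, 8.55, 8.41 and 8.26 in posterior cells and 8.21, 7.82 and 8.06 in anterior cells. Every delaminating value was below every posterior value, by 0.66 on average (log2 difference -0.66 ± 0.20, limma unadjusted p = 0.00753, adjusted p = 0.233). Posterior arrays were also above all anterior arrays, at 0.38 ± 0.20. Rab23, which in the wing restricts each cell to 1 hair and acts in planar polarity, had 7.19, 6.79 and 7.01 in delaminating, 7.36, 7.73 and 7.26 in posterior and 7.05, 7.27 and 6.06 in anterior cells. Delaminating arrays again lay below posterior arrays without overlap, at -0.45 ± 0.30 (limma adjusted p = 0.711).

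Rab27, which docks secretory vesicles, gave 7.69 to 8.13 in delaminating, 8.03 to 8.33 in posterior and 6.85 to 8.25 in anterior cells. Rab26, another vesicle Rab, was the steadiest of this class, at 6.81 to 6.98, 6.62 to 6.77 and 6.74 to 6.78. Its delaminating arrays were above all others, by 0.20 ± 0.14 over posterior and 0.12 ± 0.14 over anterior cells, and limma adjusted p was 0.752 and 0.702. The median of the 5 genes, with Rab32 and Rab23 among them, was -0.25 in delaminating against posterior cells.

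The regulators of Rab3 by name did not pass the test in any comparison. Rab3-GAP, a subunit of the complex that acts on Rab3 and Rab18 in mammals, gave 8.96 to 9.51, 9.26 to 9.68 and 8.59 to 9.28 in delaminating, posterior and anterior cells. Rab3GAP1, the other subunit, gave 5.55 to 6.16, 5.72 to 6.15 and 5.12 to 5.98, below the lower quartile on 6 of 9 arrays. Rab3-GEF, which loads Rab3 with GTP, was below it on all 9, at 4.12 to 4.18, 4.21 to 4.22 and 3.77 to 4.34.

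Among Rabs of the endoplasmic reticulum and Golgi, all 4 differences of delaminating from anterior cells were above 0, with a median of 0.56 and none called. Rab18, found on the endoplasmic reticulum and lipid droplets, came nearest to the threshold. It had 9.90, 10.11 and 9.999 in delaminating cells, 9.74, 9.52 and 9.84 in posterior cells and 9.49, 9.52 and 8.96 in anterior cells. The 3 populations lay above each other in this order without overlap, although the nearest posterior and anterior arrays were almost equal. The step over posterior cells was 0.30 ± 0.19 (limma adjusted p = 0.702), that of posterior over anterior cells 0.38 ± 0.19 (adjusted p = 0.553) and that of delaminating over anterior cells 0.68 ± 0.19 (unadjusted p = 0.00568, adjusted p = 0.0956). Without anterior replicate 3 the differences from anterior cells were 0.20 in posterior and 0.50 in delaminating cells, and 3 of the 4 genes of the class were above 0 in delaminating cells, Rab40 being at -0.06.

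Rab19 had 9.52, 10.23 and 9.46 in delaminating cells, 9.21, 9.05 and 9.31 in posterior cells and 9.30, 9.19 and 9.42 in anterior cells. All delaminating arrays were above the other 6, with replicate 2 the highest. The differences were 0.55 ± 0.22 from posterior and 0.43 ± 0.22 from anterior cells, with limma adjusted p of 0.413 and 0.362. Rab40, a Rab with a SOCS box that works with a ubiquitin ligase, gave 7.53 to 7.87 in delaminating, 7.78 to 8.03 in posterior and 6.35 to 7.97 in anterior cells. Its lowest anterior signal was that of replicate 3. Rab30, a Golgi Rab, had 4.29, 6.04 and 4.97 in delaminating, 4.24, 4.69 and 4.37 in posterior and 3.86, 4.06 and 3.88 in anterior cells. These signals were below the lower quartile on all arrays, and they are given without a fold.

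For Rabs of recycling and plasma membrane delivery all 3 differences were above 0 in each comparison with all arrays, and none was called. With anterior replicate 3 left out, 0 of 3 were above 0 in posterior against anterior cells (median -0.09) and 2 of 3 in delaminating against anterior cells. Rab10, which steers basement membrane secretion in fly epithelia, had 8.09, 7.94 and 8.39 in delaminating cells, 7.55, 7.94 and 7.63 in posterior cells and 7.96, 7.75 and 6.88 in anterior cells. Delaminating arrays did not overlap with posterior ones, with a margin of less than 0.01 at the nearest pair, and the difference was 0.44 ± 0.28 (limma adjusted p = 0.695). Rab14, which acts between endosomes, Golgi and phagosomes, had 10.11, 9.86 and 10.28 in delaminating, 9.77, 9.81 and 9.60 in posterior and 9.65, 9.81 and 9.56 in anterior cells. Its delaminating arrays lay above all 6 others, by 0.35 ± 0.17 over posterior and 0.41 ± 0.17 over anterior cells, with limma adjusted p of 0.544 and 0.271. Rab35, a recycling Rab that also acts on actin, overlapped in every comparison, at 6.50 to 7.82, 6.62 to 7.28 and 6.55 to 7.28.

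The late and early endosomal Rabs had differences on both sides of 0 in delaminating against posterior cells, and none was called. Rab9, which returns receptors from late endosomes to the Golgi, had 7.14, 6.41 and 7.003 in delaminating cells, 7.81, 7.51 and 7.57 in posterior cells and 7.72, 7.23 and 6.10 in anterior cells. Every delaminating value was under every posterior value, at -0.78 ± 0.37 with a 95% interval of -1.61 to 0.04 (limma adjusted p = 0.537). This was the lowest difference of the 43 genes in that comparison. Against anterior cells it was -0.17 with all arrays and -0.62 ± 0.24 without anterior replicate 3 (limma adjusted p = 0.223).

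RabX1, an endosomal Rab of flies, ran the other way. It had 10.15, 10.87 and 10.15 in delaminating, 9.87, 10.20 and 9.92 in posterior and 10.27, 10.37 and 10.25 in anterior cells. It was the member whose posterior arrays all lay below the anterior ones, at -0.30 ± 0.22 (limma adjusted p = 0.594). Rab39, which binds HOPS at lysosomes, gave 8.71 to 9.20, 8.69 to 9.34 and 9.19 to 9.43 in delaminating, posterior and anterior cells, and Rab21, an early endosome Rab that moves integrins in mammalian cells, 6.70 to 6.82, 6.35 to 7.09 and 5.34 to 6.90. Both overlapped in all 3 comparisons. Rab2, needed for fusion of late endosomes and autophagosomes with lysosomes, was below the lower quartile on all arrays, at 4.78 to 5.78, 4.92 to 5.42 and 4.42 to 5.19.

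**Figure D4:**
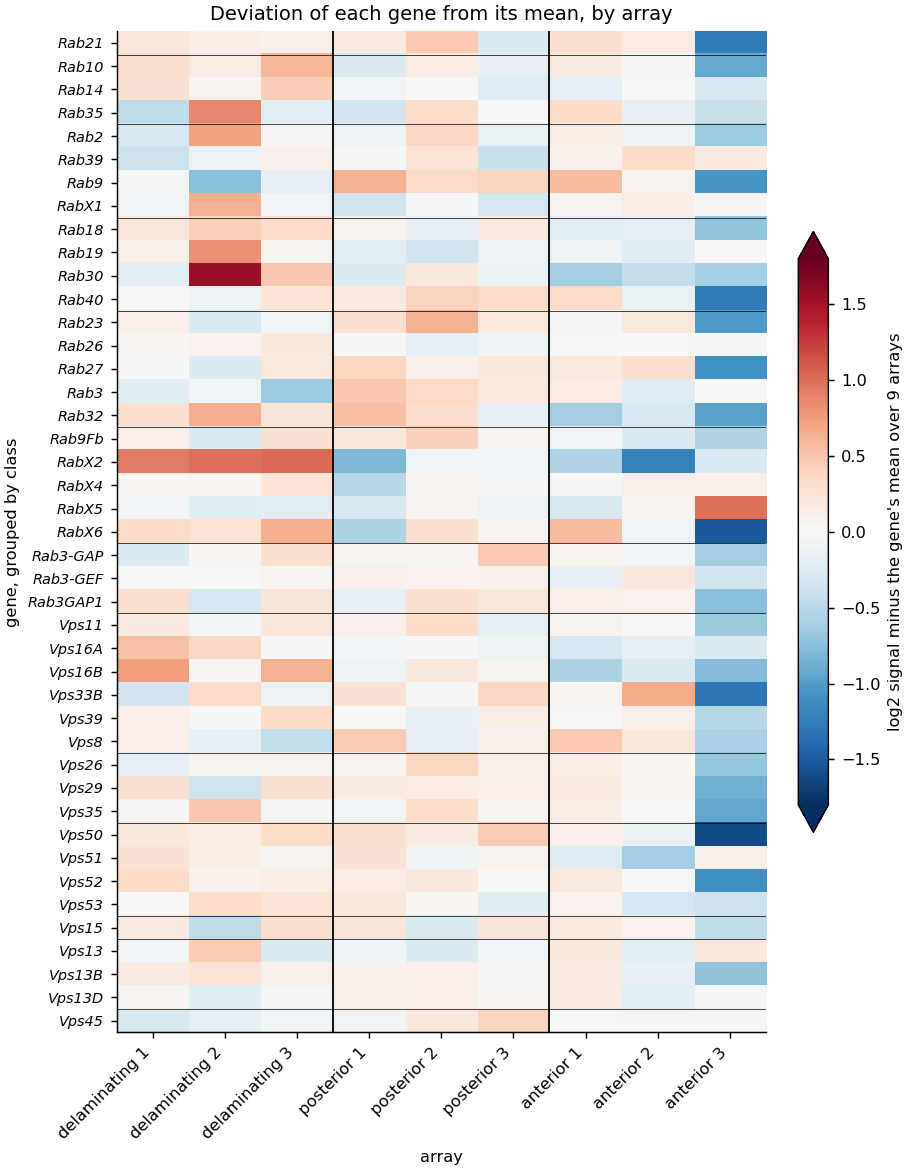
Signals of the 43 genes (rows, by class) on the 9 arrays (columns: delaminating, posterior, anterior), coloured by the deviation from the gene's mean over the arrays on the log2 scale. The column of anterior replicate 3 is the lowest of the 9 for 28 of the 43 rows.

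Vps16B led the Vps genes. With Vps33B it forms a complex related to HOPS that in flies acts on phagosome and endosome maturation. Its log2 signals were 9.07, 8.36 and 8.96 in delaminating cells, 8.22, 8.52 and 8.39 in posterior cells and 7.76, 8.06 and 7.54 in anterior cells. All 6 arrays of RFP-positive cells were above the anterior arrays, and delaminating replicate 2 lay among the posterior arrays. Delaminating cells were 1.01 ± 0.23 above anterior cells (2.02-fold, limma adjusted p = 0.0381), and posterior cells 0.59 ± 0.23 above them (adjusted p = 0.453). The call was kept in 9 of 19 alternatives, with limma adjusted p from 0.00107 to 0.149. With 1 array left out it was kept without delaminating replicate 2 (adjusted p = 0.0184) and lost without any of the other 8 (0.0505 to 0.149).

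Its partner Vps33B had 7.55, 8.23 and 7.78 in delaminating, 8.16, 7.91 and 8.26 in posterior and 7.95, 8.56 and 6.60 in anterior cells, with overlap in every comparison. The difference of delaminating from anterior cells was 0.15 ± 0.42 (limma adjusted p = 0.889) and -0.40 ± 0.25 without anterior replicate 3. With array weights, which give less weight to more variable arrays, it was called lower, at -0.72 (adjusted p = 0.0443). Whether the partners differ in response was not tested. On chromosome arm 3R Vps16B overlaps ca, whose signals differed by 0.56 in the same comparison (limma adjusted p = 0.176), and no source used here gives the strand the probes read. The next genes, ncd and CG7829, differed by -0.08 and 0.80 (limma adjusted p = 0.857 and 0.0851).

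HOPS tethers late endosomes to lysosomes and CORVET tethers early endosomes, and they share a core. Of that core, Vps16A had 7.03, 6.88 and 6.53 in delaminating cells, 6.46, 6.48 and 6.41 in posterior cells and 6.21, 6.33 and 6.25 in anterior cells. As for Rab18, each population was above the next without overlap, and delaminating cells were 0.55 ± 0.17 above anterior cells (limma unadjusted p = 0.00868, adjusted p = 0.121). Vps11, also of the core, gave 6.47 to 6.73, 6.36 to 6.85 and 5.86 to 6.57 in delaminating, posterior and anterior cells.

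The HOPS subunit Vps39 gave 8.04 to 8.43, 7.93 to 8.22 and 7.57 to 8.18, and the CORVET subunit Vps8 gave 7.43 to 8.00, 7.71 to 8.33 and 7.29 to 8.35. Both overlapped in each comparison with all arrays.

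Other subunits of these complexes carry fly names from eye colour and similar mutants, and 4 were measured. None was called with all arrays. In delaminating against anterior cells all 4 had a limma unadjusted p under 0.05 (16.6% of all genes), and 3 of the 4 differences were above 0. scat (Vps54 of GARP) had 7.91, 7.77 and 7.96 in delaminating, 7.34, 6.997 and 7.06 in posterior and 7.41, 7.18 and 6.52 in anterior cells, with delaminating arrays above all others (0.75 ± 0.23 over posterior, limma adjusted p = 0.261, and 0.84 ± 0.23 over anterior cells, adjusted p = 0.0867). In the fit without anterior replicate 3 it was called higher in delaminating than in posterior cells (0.75 ± 0.14, limma adjusted p = 0.0355), and its difference from anterior cells was 0.58 ± 0.16 (adjusted p = 0.0852). car (Vps33A) was at 6.51 to 7.13, 6.52 to 6.70 and 5.95 to 6.42. Its delaminating arrays were above all anterior arrays, by 0.59 ± 0.21 (limma adjusted p = 0.188), and by 0.48 ± 0.21 without anterior replicate 3.

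The remaining 2, dor (Vps18) and lt (Vps41), are named after their values were seen. dor had 7.60, 7.59 and 7.70 in delaminating cells, 8.60, 8.34 and 8.21 in posterior cells and 8.74, 8.82 and 7.56 in anterior cells. The delaminating arrays were below all others except anterior replicate 3. The difference from posterior cells was -0.75 ± 0.30 (limma adjusted p = 0.418) with all arrays and -0.75 ± 0.14 (adjusted p = 0.0298) without that replicate. Against anterior cells it was -0.74 ± 0.30 (adjusted p = 0.26) with all arrays and -1.14 ± 0.16 (adjusted p = 0.00439) without it. lt was at 7.87 to 9.19, 7.76 to 8.03 and 7.08 to 7.75. Its delaminating arrays were above all anterior arrays, by 0.90 ± 0.33 (limma adjusted p = 0.202), and by 0.72 ± 0.35 without anterior replicate 3.

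None of the 3 retromer subunits was called in any comparison. Vps26 gave 9.74, 9.97 and 9.97 in delaminating, 9.97, 10.29 and 9.99 in posterior and 10.03, 9.93 and 9.21 in anterior cells. Vps29 gave 10.44, 9.81 and 10.44, then 10.34, 10.31 and 10.29, then 10.34, 10.20 and 9.29 in the same populations. Vps35, the scaffold, gave 8.74, 9.21 and 8.70 in delaminating, 8.67, 9.05 and 8.78 in posterior and 8.86, 8.71 and 7.81 in anterior cells. In all 3 genes the lowest value was that of anterior replicate 3, and the groups overlapped except that the delaminating arrays of Vps26 lay narrowly below its posterior arrays. The differences of posterior from anterior cells were 0.36, 0.37 and 0.37 for Vps26, Vps29 and Vps35 with all arrays, and 0.10, 0.04 and 0.05 without it. Delaminating and posterior cells differed by -0.19, -0.08 and 0.05.

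GARP and EARP tether endosome-derived vesicles at the Golgi and at recycling endosomes, and share Vps51, Vps52 and Vps53. Vps50, the EARP subunit, had 7.27, 7.19 and 7.40 in delaminating, 7.37, 7.23 and 7.52 in posterior and 7.18, 6.95 and 5.45 in anterior cells. Both RFP-positive populations were above all anterior arrays, and posterior cells by 0.85 ± 0.38 (limma adjusted p = 0.52) with all arrays but 0.31 ± 0.16 without anterior replicate 3. In Vps51 that array was not the lowest. The gene had 8.55, 8.42 and 8.34 in delaminating, 8.55, 8.18 and 8.34 in posterior and 8.05, 7.67 and 8.39 in anterior cells, so that replicate 3 was the highest anterior array. Its difference of delaminating from anterior cells was 0.40 ± 0.21 with all arrays and 0.58 ± 0.18 without that replicate (limma adjusted p = 0.112). Vps52 was at 8.44 to 8.67, 8.34 to 8.54 and 7.23 to 8.52, and Vps53 at 7.90 to 8.22, 7.67 to 8.10 and 7.50 to 7.97.

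Vps45 binds syntaxins at endosomes. It had 8.02, 8.13 and 8.21 in delaminating cells, 8.23, 8.50 and 8.70 in posterior cells and 8.30, 8.32 and 8.26 in anterior cells. The delaminating arrays were below all 6 others, which held for no other member. The differences were small, -0.35 ± 0.17 from posterior and -0.17 ± 0.17 from anterior cells, with limma adjusted p of 0.537 and 0.638.

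The Vps13 proteins carry lipids between membranes at contact sites. Vps13 had 11.24, 11.75 and 11.05 in delaminating, 11.20, 11.02 and 11.25 in posterior and 11.49, 11.10 and 11.50 in anterior cells. Vps13B was at 9.10 to 9.26, 8.97 to 9.13 and 8.28 to 9.16, and Vps13D, which in flies acts in mitochondrial clearance, at 8.42 to 8.67, 8.66 to 8.75 and 8.44 to 8.78. Vps15, the regulatory subunit of the class III phosphatidylinositol 3-kinase, was at 8.05 to 8.79, 8.25 to 8.73 and 8.04 to 8.69. All 4 overlapped in every comparison, and the 95% intervals of their differences included 0.

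The genes that act with Rab and Vps proteins were counted in the same fit, with the lists chosen for their roles. Those that load, unload or read Rabs had no called gene in any comparison: 0 of 3 for Rab prenylation and extraction, 0 of 8 exchange factors, 0 of 12 GTPase-activating proteins, 0 of 19 effectors and 0 of 7 exocyst subunits. Of all genes 0.576% to 3.82% were called, so counts of 0 in lists this short say little. In delaminating against anterior cells 1, 1, 2, 5 and 0 genes of these lists had a limma unadjusted p under 0.05 (16.6% of all genes). The effector nuf, which binds Rab11 at recycling endosomes, came nearest. It had 9.92, 9.33 and 9.71 in delaminating, 9.49, 9.42 and 9.56 in posterior and 10.34, 10.43 and 10.34 in anterior cells. All RFP-positive arrays were below the anterior ones, by -0.71 ± 0.18 in delaminating and -0.88 ± 0.18 in posterior cells (limma adjusted p = 0.0605 and 0.0817). The prenylation gene Rep differed by 0.93, the exchange factor Rabex-5 by 0.49, the GTPase-activating protein Evi5 by 0.61 and the exocyst gene Sec10 by 0.53 between delaminating and anterior cells, with limma adjusted p of 0.139 to 0.327 among them. These differences were 0.52 for Rep, 0.25 for Rabex-5, 0.57 for Evi5 and 0.36 for Sec10 without anterior replicate 3.

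Retromer partners (10) and enzymes of phosphatidylinositol 3-phosphate (7) also had 0 called, against the same shares of all genes. Snx3, the sorting nexin that joins retromer in Wntless recycling, had 9.42, 10.80 and 9.60 in delaminating, 9.005, 9.23 and 8.93 in posterior and 9.03, 8.46 and 8.20 in anterior cells. Delaminating arrays were above all others, by 1.38 ± 0.35 over anterior cells (limma adjusted p = 0.0649). Uvrag, a subunit of the kinase complex of Vps15, was 0.77 ± 0.19 above anterior cells (adjusted p = 0.0583).

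Fusion and degradation genes each had 1 called gene, in delaminating against anterior cells, where 3.82% of all genes were called. Whether such single calls exceed that share was not tested. A limma unadjusted p under 0.05 was reached there by 9 of the 14 SNAREs and fusion factors (16.6% of all genes). It was reached by 3 of the 14 lysosomal and 3 of the 16 endocytosis genes. Differences were above 0 for 14, 12 and 15 genes of these lists (56.2% of all genes), with medians of 0.53, 0.35 and 0.35. Without anterior replicate 3 the medians were 0.39, 0.13 and 0.19. Of 14 SNAREs and fusion factors, Snap24 rose by 0.82 ± 0.17, with 10.59, 10.74 and 10.73 in delaminating, 10.001, 9.96 and 9.95 in posterior and 9.93, 10.09 and 9.59 in anterior cells (limma adjusted p = 0.0276). Of 14 lysosomal genes, the cathepsin gene CtsL1 rose by 0.93 ± 0.19 (adjusted p = 0.0263). Of 16 genes of clathrin and endocytosis, the adaptor subunit AP-2sigma rose by 0.94 ± 0.19 (adjusted p = 0.0242). No gene of these lists was called in posterior against anterior cells. Without anterior replicate 3, Snap24 and CtsL1 were also called in delaminating against posterior cells (limma adjusted p = 0.0214 and 0.0281), as were 2.35% of all genes.

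The ESCRT genes, left out by the rule, had the most calls of these lists. Of 16 measured, 5 rose in delaminating against anterior cells (TSG101, Vps2, Vps4, Vps60 and shrb), where 3.82% of all genes were called. Vps60 also rose in delaminating against posterior cells, where 0.801% of all genes were called. The median difference of the 16 was 0.81 and 0.53 in these comparisons. For the 43 Rab and other Vps genes the medians were 0.29 and 0.05. Vps60, of the late-acting ESCRT-III complex, had 10.89, 11.21 and 10.98 in delaminating cells, 9.84, 9.65 and 9.82 in posterior cells and 9.90, 9.95 and 9.08 in anterior cells. Its delaminating arrays stood above the other 6, at 1.25 ± 0.24 over posterior cells (limma adjusted p = 0.0487). Without anterior replicate 3 the same 5 ESCRT genes were called in both comparisons with delaminating cells, against 4.73% (anterior) and 2.35% (posterior) of all genes. The difference between the ESCRT genes and the Rab and Vps genes was not tested.

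Ordered by group mean, delaminating cells were the highest population for 23 of the 43 genes, posterior cells for 17 and anterior cells for 3, and anterior cells were the lowest for 31. When anterior replicate 3 was left out, the highest population was the delaminating one for 22 genes, the posterior one for 14 and the anterior one for 7, and anterior cells were the lowest for 16, as were delaminating cells. This order was not counted over all genes, so it is not shown to be particular to the 43. With all arrays, 60.7% of all genes were higher in posterior and 56.2% higher in delaminating than in anterior cells. The spread within groups was also unequal. The median SD over the 43 genes was 0.219 in delaminating, 0.179 in posterior and 0.368 in anterior cells, and 0.217, 0.169 and 0.322 over all genes.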

How the data were processed

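The deposited log2 signals came from RMA as run by the authors, per the submitters' processing notes, which name no version. Per the labels' protocols, trypsin-dissociated cells were sorted by fluorescence and the RNA was amplified as a whole transcriptome. No further scaling was applied. Signals ranged from 2.70 to 14.2, and medians of arrays from 7.47 to 7.55. The number of arrays limits the precision.

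Of 18952 probe sets, 183 controls were left out, and 13647 carried 1 symbol, 402 several and 4720 none. The brightest single-symbol probe set stood for each of 11982 genes. Symbols were matched to RefSeq, assembly Release 6 plus ISO1 MT, for 11893 genes and all 43 members, used for names, arms and neighbours only. Of the 43, 4 lay below the array's lower quartile (6.01 to 6.34) on all 9 arrays and 39 above it on at least 1.

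A model with a mean per group was fitted with limma 3.58.1 in R 4.3.3 to all 9 arrays, and its moderated test was two-sided. On simulated data it recovered slightly fewer large planted differences than first required, and the requirement was then lowered with the method left as it was. Folds are powers of 2 of log2 differences. The labels call the 3 samples of a group biological replicates without saying how larvae were pooled. The rule for naming genes took those called and the 3 highest and 3 lowest without overlap per comparison. It also took the highest and lowest of each functional class (all of classes with up to 4). From each list it took up to 3 called genes or the one with the smallest p, and it added en, inv, hh and ci. The text gives other members by range. It leaves out inv, hh and several list genes that the rule took, RabGGTa and Ccz1 among them. The members, classes and lists were chosen with earlier results of these data known. Settings tried as alternatives were other normalizations, filters, probe set rules, variance models, array weights, a replicate block and each array left out. Leaving out anterior replicate 3 with delaminating replicate 2 was chosen after seeing the data. Figures were drawn with matplotlib 3.10.9.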

Additional observations from a re-analysis of the deposited data

How the results depend on the processing

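The median differences of the members stayed above 0 in every setting tried, and the calls were few. These settings reuse the same arrays, and some medians were close to 0. In delaminating against posterior cells the median was 0.0074 without posterior replicate 3, against -0.0099 over all genes. The pooled SD within groups of the array median over the members was 0.22. In delaminating against posterior cells, 0 of the 43 genes were called with all arrays (0.801% of all genes). RabX2 was the 1 called with the dimmest 25% of genes left out (1.56% of all genes) and with only the groups compared in the fit (1.54%). With array weights 3 were called (RabX2 and Vps16B higher, Rab3 lower), against 6.25% of all genes. With an array left out 0 to 1 were called, the 1 without anterior replicate 3 (2.35% of all genes). In delaminating against anterior cells, the 3 of 43 called (3.82% of all genes) became 1 with only the groups compared in the fit (1.5%). With array weights 7 of 43 were called, against 16.5% of all genes. These were Rab18, Rab32, RabX2, Vps16A, Vps16B and Vps51 higher, and Vps33B lower at -0.7241, against 0.15 as reported. With an array left out 0 to 2 were called, the 0 without delaminating replicate 3 (1.77% of all genes). In posterior against anterior cells 0 were called throughout, and the median was 0.04786 to 0.4206 with an array left out and 0.04786 without anterior replicate 3 and delaminating replicate 2. The difference of Rab32 from posterior cells, not called, ran from -0.03665 (without posterior replicate 3) to 0.3055 with an array left out. Of the 37 genes with 19 alternatives, the sign was the same in all of them for 26 in delaminating against posterior cells, 27 in posterior against anterior cells and 20 in delaminating against anterior cells. The other 6 had 18 alternatives, since they have no value where the dimmest genes were left out, and 3 of them kept their sign in each comparison. The cause of these shifts was not tested. Over all genes the count called in delaminating against posterior cells was 96 as reported, 749 with array weights, 281 without anterior replicate 3 and 17 without delaminating replicate 3; in delaminating against anterior cells 458, 1974 with array weights and 180 with only the groups compared in the fit; and in posterior against anterior cells 69, 427 with array weights and 35 without posterior replicate 1. Deviations of same-numbered samples correlated at -0.12 to 0.18, and in 5 of 9 pairs the sample correlated best with its own number. With so few arrays these values cannot settle whether same-numbered samples were paired. With the replicate block, 2 members were called in delaminating against anterior cells, against 3.15% of all genes. The other comparisons had 0 called, against 0.551% of all genes in delaminating against posterior and 0.492% in posterior against anterior cells. Vps16B (limma adjusted p = 0.0804 against anterior cells) was not called with the block. With 3 arrays a group, intervals were wide, and a difference under the threshold was not shown to be absent.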

Other observations

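Rab9D, Rab9Db, Rab9E and Rab9Fa, fly copies related to Rab9, share 1 probe set that carries all 4 names and so belongs to no single gene. Its log2 signals were 9.03, 8.93 and 8.75 in delaminating cells, 9.22, 8.81 and 9.23 in posterior cells and 8.76, 8.77 and 8.90 in anterior cells. The groups overlapped in every comparison, and the limma adjusted p over all probe sets was 0.541 to 0.876.

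Rab26 has a second probe set, whose differences were 0.17 for delaminating against posterior, -0.16 for posterior against anterior and 0.01 for delaminating against anterior cells, against 0.20, -0.08 and 0.12 for the brighter one. Both gave the same signs, and neither passed the test.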
